A study of Homo sapiens with 74 samples.

Results

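In wild type K562, an established human erythroleukaemia cell line, 14758 of the 28131 genes counted were below 0.5 CPM (a gene's count divided by the library's total and multiplied by 1000000) in both control libraries. Of these, 70 genes reached at least 3 CPM in each of the 3 libraries of K562 cells with knockout (KO) of DOT1L, and they are described here. They were chosen on exactly these K562 levels, so the difference between control and DOT1L KO is given as a description, without a test. The choice left out gene symbols starting with ZNF, COL, LAM, GBP, SLFN, HOX, HIST, LINC, CHST or TNF, which removed 10 of the 80 genes that met the levels. The 70 genes make up 0.474% of the genes silent in the controls. By their RefSeq entries 69 are protein-coding, and SIGLEC17P is a transcribed pseudogene.

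DOT1L is the enzyme that methylates lysine 79 of histone H3, a mark found mainly over genes that are being transcribed. ENL, whose gene symbol is MLLT1, is a reader of acetylated histones and a partner of DOT1L. Both proteins are known for work at genes that are being transcribed, and the genes described here were counted at or near 0 while both were present.

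Polyadenylated RNA was sequenced in 5 groups. K562 was measured as wild type (2 distinct control libraries), as DOT1L-/- (3 libraries) and as ENL-/- (3 libraries). HEL, a second erythroleukaemia line, was measured as control and after knockdown (KD) of DOT1L, with 2 libraries each. The labels do not say whether each knockout is 1 clone, how the knockdown was made, or whether replicates came from separate cultures, so p-values measure only the spread between these libraries. A library's counts summed to between 15404944 and 29236703 fragments in K562 and to between 12151495 and 12811688 reads in HEL, and 3 counts, the most that a count of 0 allows, were worth 0.103 to 0.247 CPM. The K562 and HEL tables were counted and scaled separately, which bears on every level set across them.

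The targeted transcripts do not by themselves show the loss of either protein. DOT1L stood at 268 and 253 CPM in the K562 controls and at 189, 179 and 191 CPM in the DOT1L KO, and MLLT1 at 212 and 216 CPM in the controls and 150, 153 and 153 CPM in the ENL KO. In HEL, DOT1L fell from 96.5 and 85.9 CPM to 29.4 and 30.4 CPM (log2 fold change -1.64 ± 0.06 SE, edgeR adjusted p = 2.22e-28). All 14 erythroleukaemia markers looked at, globins and GATA1 among them, were above 3 CPM in each K562 control and DOT1L KO library. Of these, 12 were called higher in the DOT1L KO (edgeR), ALAS2 with a log2 fold change of 2.67 among them, and TFRC and LMO2 were lower. Marker lists of other cell types moved in part and in both directions. Of 20 megakaryocyte and platelet genes 10 stayed off in the DOT1L KO. Of the 9 that could be tested, 7 were higher and F2RL3 was lower. Of 20 monocyte and macrophage genes, 12 stayed off in the DOT1L KO and FCN1 and CLEC7A were at 0. Of the 8 that could be tested, 5 were higher, LYZ and VCAN among them, and CD68 was lower. Their summed level was 66.6 to 68.7 CPM in the controls and 333 to 358 CPM in the DOT1L KO. Of 16 endothelial genes, 9 were tested. TEK, TIE1, ESAM and ENG were higher and EGFL7, SOX18 and FLT1 lower, while CDH5, EMCN, CLDN5 and SOX17 were at 0, and the summed level was 368 to 401 CPM and 141 to 160 CPM. The rule fixed the call of TEK. TIE1 had means of 0.277 CPM in the controls and 2.53 CPM in the DOT1L KO. A gene that low in the controls passes the filter on low counts mostly by being high in a knockout. Of all genes tested, 26.9% were higher and 24.2% lower in the DOT1L KO. The sums also went from 92.9 to 95.6 CPM to 232 to 236 CPM for fibroblast and smooth muscle genes, from 238 to 264 CPM to 443 to 502 CPM for muscle genes, and from 514 to 571 CPM to 400 to 425 CPM for mast cell and basophil genes. TEK is the 1 member found on any of these other-cell-type lists, and the part of such cells in the results was not tested.

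Promoters of 6 members are shown first, because these genes span what the 70 do in the other samples and in sequence. SUCNR1 and RASGRP3 have CpG-poor promoters and are on in HEL. FAM9B and TUBA3C are the members that were also on in the ENL KO. UNC5C has the highest CPM in the DOT1L KO, before any scaling by length, and no read in the HEL controls, and ANKRD44 has a CpG-rich start and no read in the ENL KO. Each line holds the 120 bases before the transcription start in RefSeq (GRCh38.p14), 5′ to 3′ on the gene's strand, with CpG dinucleotides in capitals. The RefSeq start lies within 17 bases of the count table's gene start in 5 of the 6 genes. In UNC5C it lies 237 bases inside the counted gene, so its printed stretch does too.
SUCNR1 (chr3:151873523-151873642, plus strand): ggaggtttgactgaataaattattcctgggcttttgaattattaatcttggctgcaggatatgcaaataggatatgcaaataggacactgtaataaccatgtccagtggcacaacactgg
RASGRP3 (chr2:33436228-33436347, plus strand): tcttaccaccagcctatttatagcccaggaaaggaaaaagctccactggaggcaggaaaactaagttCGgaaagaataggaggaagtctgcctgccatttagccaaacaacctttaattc
FAM9B (chrX:9034128-9034247, minus strand): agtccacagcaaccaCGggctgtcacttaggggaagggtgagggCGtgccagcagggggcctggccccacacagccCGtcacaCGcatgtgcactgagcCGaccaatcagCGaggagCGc
TUBA3C (chr13:19181825-19181944, minus strand): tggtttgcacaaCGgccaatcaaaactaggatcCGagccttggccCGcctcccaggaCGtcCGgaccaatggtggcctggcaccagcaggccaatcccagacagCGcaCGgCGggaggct
UNC5C (chr4:95548974-95549093, minus strand): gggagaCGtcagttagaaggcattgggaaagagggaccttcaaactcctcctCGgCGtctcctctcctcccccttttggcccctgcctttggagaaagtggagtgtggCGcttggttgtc
ANKRD44 (chr2:197310781-197310900, minus strand): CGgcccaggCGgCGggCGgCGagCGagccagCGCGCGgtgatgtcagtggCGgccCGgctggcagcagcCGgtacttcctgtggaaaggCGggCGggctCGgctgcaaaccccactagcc

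These stretches hold 0 CpG in SUCNR1, 1 in RASGRP3, 7 in FAM9B, 8 in TUBA3C, 4 in UNC5C and 15 in ANKRD44. The stretch of TUBA3C holds the letters CCAAT 3 times, and that of SUCNR1 holds ATGCAAAT, the octamer known as a site of POU-domain factors, 2 times. The octamer was looked for after the sequence had been seen, and 1.80% of all promoters hold it on either strand.

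**Figure D1:**
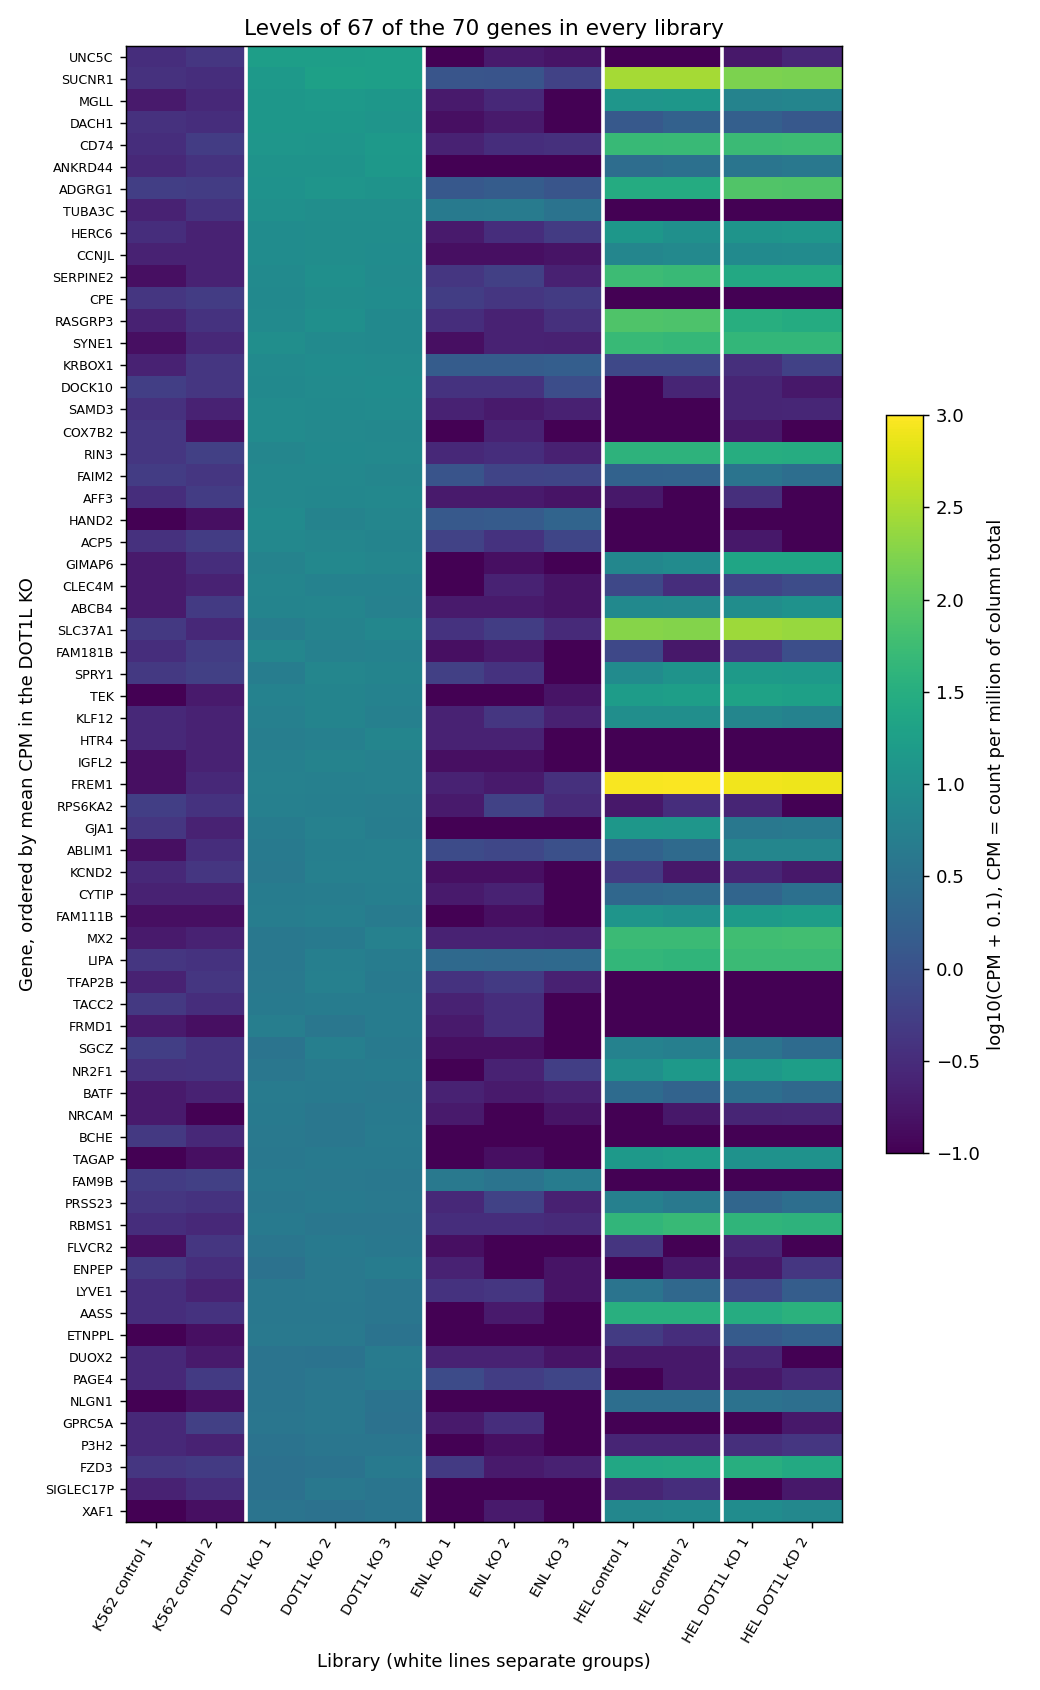
Level of 67 of the 70 genes (rows, ordered by mean CPM in the DOT1L KO) in each of the 12 libraries (columns), as log10(CPM + 0.1), with white lines between groups. The 2 control columns are dark and the 3 DOT1L KO columns bright for every gene shown, as the rule requires. The ENL KO columns are dark for most genes, and the HEL columns range from dark to brighter than the DOT1L KO.

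Across the 70 genes the mean level was 0.0234 to 0.441 CPM in the controls (median 0.209) and 3.30 to 17.5 CPM in the DOT1L KO (median 5.38). The ratio of the means ran from 9.19 (FAM9B) to 296 (HAND2), with a median of 35.2. The coefficient of variation over the 3 DOT1L KO libraries was 1.26% for CCNJL at the low end, 21.5% for SGCZ at the high end and 7.67% at the median. The rule set a minimum in each of these libraries, which favours a small spread, and the spread of other genes is not given. In each DOT1L KO library 34 genes were at 5 CPM or more and 7 at 10 CPM or more. Per kilobase of exon, the mean level in the DOT1L KO ran from 0.195 CPM in NLGN1 to 14.3 CPM in COX7B2, with a median of 1.52.

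In bulk RNA a low level in every cell and a higher level in a few cells cannot be told apart. The controls were not empty. No member had 0 counts in both controls, although 10139 of the silent genes did. Of the 3097 silent genes with 1 to 5 counts summed over the controls 18 are members, of the 871 with 6 to 10 counts 24 are, and of the 651 with more than 10 counts 28 are (0.581%, 2.76% and 4.30%). For 18 members each control held at most 3 counts, so their ratios are loosely bounded. HAND2 had 0 and 1 control counts, and its ratio of 296 has a 95% interval of 52.9 to 11719 that covers counting error only.

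The thresholds of the rule fell in a continuum. Just inside the limit for the controls lay RIN3, SPRY1 and FAM9B, each with a higher control of 0.467 CPM, and just outside lay MAP10 and ARSD at 0.507 CPM and VSIG10 at 0.514 CPM. Just inside the limit for the DOT1L KO lay FZD3 and SIGLEC17P with a lowest library of 3.00 CPM and GPRC5A with 3.09 CPM, and just outside lay PROX1 at 2.95 CPM and MED12L and HAVCR1 at 2.94 CPM.

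Surface receptors make up 10 of the 70 genes. UNC5C, a receptor for the axon guidance cue netrin (chr4:95162505-95549210, GRCh38), had 0.231 and 0.327 CPM in the controls and 17.1, 17.3 and 18.0 CPM in the DOT1L KO. It stayed at 0 to 0.0953 CPM in the ENL KO and had 0 counts in both HEL controls. SUCNR1, the receptor for extracellular succinate (chr3:151873643-151884619), went with 0.277 and 0.234 CPM in the controls against 13.8, 18.9 and 17.9 CPM in the DOT1L KO. Its ENL KO libraries, at 1.04, 1.00 and 0.519 CPM, all lay above both controls and far below the DOT1L KO. In HEL controls it stood at 291 and 290 CPM. ADGRG1, an adhesion G protein-coupled receptor (chr16:57619693-57665039), had 0.461 and 0.420 CPM in the controls, 10.7, 12.1 and 11.2 CPM in the DOT1L KO and 1.18, 1.38 and 1.04 CPM in the ENL KO. TEK, the angiopoietin receptor, was at 0 and 0.0934 CPM in the controls and at 5.77, 6.26 and 5.83 CPM in the DOT1L KO. The remaining receptors are the hyaluronan receptor LYVE1, the lectin CLEC4M, the Wnt receptor FZD3, the serotonin receptor HTR4, GPRC5A and the pseudogene SIGLEC17P, with means of 3.46 to 6.14 CPM in the DOT1L KO.

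Channels, the gap junction protein GJA1 and transporters form a group of 8. The potassium channel gene KCND2 had 0.185 and 0.327 CPM in the controls and 3.97, 5.47 and 5.44 CPM in the DOT1L KO, and was off in the ENL KO and in the HEL controls. GJA1 had 0.323 and 0.140 CPM against 4.66, 5.58 and 4.80 CPM, and no count in the ENL KO. ABCB4, a phospholipid transporter, had 0.0923 and 0.374 CPM against 6.19, 6.46 and 5.59 CPM. In each of these 3 genes all DOT1L KO libraries lay far above both controls, as the rule requires.

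Of 7 transcription factors and cofactors, DACH1, a corepressor of developmental genes (chr13:71437966-71867204), had 0.277 and 0.234 CPM in the controls against 13.2, 12.9 and 12.2 CPM in the DOT1L KO. Its controls were near the floor, and its DOT1L KO libraries had a coefficient of variation of 4.00%. HAND2, a basic helix-loop-helix factor of heart and limb development (chr4:173526501-173530227), reached 8.03, 6.05 and 6.81 CPM. Its antisense neighbour HAND2-AS1, which shares exon bases with it, was at a mean of 0.0231 CPM in the controls and 2.06 CPM in the DOT1L KO. AFF3, a relative of the elongation factor scaffold AFF4, had 7.15, 6.98 and 7.30 CPM. The others are KLF12, TFAP2B, the nuclear receptor NR2F1 and BATF, an AP-1 factor of lymphocytes, with means of 4.28 to 5.69 CPM.

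The 5 immune and interferon-response genes were CD74, HERC6, GIMAP6, MX2 and XAF1. CD74, the invariant chain that accompanies MHC class II proteins (chr5:150401395-150412936), had 0.231 and 0.420 CPM in the controls and 12.5, 11.97 and 13.8 CPM in the DOT1L KO. HERC6, an interferon-induced gene (chr4:88378739-88443097), had 0.231 and 0.140 CPM against 8.77, 9.10 and 9.12 CPM. All 5 were off in the ENL KO, under 0.5 CPM in each library, as were 56 of the 70 members, and all 5 were on in the HEL controls, as were 30 of the 70. The group was drawn up with these values known, and the lymphocyte genes CYTIP and BATF, placed in other groups, lay between the limits in HEL.

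Enzymes and protease inhibitors form a group of 12. MGLL, the lipase that breaks down the endocannabinoid 2-arachidonoylglycerol (chr3:127689062-127823250), had 0.0923 and 0.187 CPM in the controls and 12.9, 13.8 and 13.1 CPM in the DOT1L KO. SERPINE2, a secreted inhibitor of thrombin, had 0.0461 and 0.140 CPM against 8.08, 9.61 and 8.43 CPM. CPE, which trims prohormones, had 0.323 and 0.420 CPM against 7.89, 8.996 and 8.68 CPM and no count in the HEL controls. The lysosomal acid lipase LIPA, the acid phosphatase ACP5, the butyrylcholinesterase BCHE, the lysine-degrading AASS, the peroxide-making DUOX2 and ETNPPL, P3H2, PRSS23 and ENPEP had means of 3.51 to 6.77 CPM.

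Among the cytoskeletal genes TUBA3C, an alpha tubulin expressed mainly in testis (chr13:19173772-19181824), had 0.138 and 0.280 CPM in the controls and 10.2, 9.23 and 9.31 CPM in the DOT1L KO. Its near-identical copies did not follow: TUBA3D had at most 0.0980 CPM in any library, TUBA3E at most 0.6001 CPM, and the pseudogene TUBA3FP was at 11.8 to 18.4 CPM in all K562 groups. Reads of such copies can be split between them, so the level of TUBA3C is uncertain. SYNE1, a giant protein of the nuclear envelope, had 0.0461 and 0.187 CPM against 9.37, 8.24 and 7.79 CPM. ANKRD44, a regulatory ankyrin-repeat subunit of protein phosphatase 6 (chr2:196986662-197310797), had 0.185 and 0.280 CPM in the controls and 11.2, 11.4 and 13.6 CPM in the DOT1L KO.

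Intracellular signalling proteins form a group of 7, with means of 4.08 to 8.51 CPM in the DOT1L KO. RASGRP3 and DOCK10, an exchange factor for small GTPases, had 8.17, 9.61 and 7.74 CPM and 7.94, 8.31 and 8.87 CPM. TAGAP, a T-cell GTPase-activating protein, had 0 and 0.0467 CPM in the controls and 3.92, 4.14 and 4.17 CPM in the DOT1L KO. The others are the RAB exchange factor RIN3, the receptor kinase antagonist SPRY1, the kinase RPS6KA2 and CYTIP, a cytohesin-binding protein of lymphocytes. Adhesion and matrix genes are FREM1, NLGN1, NRCAM and SGCZ, of which the neuronal adhesion gene NRCAM had 0.0923 and 0 CPM in the controls and 4.29, 3.76 and 4.31 CPM in the DOT1L KO. The further members named here are the haem transporter relative FLVCR2, the cytoskeletal genes TACC2 and FRMD1, and CCNJL, RBMS1, SAMD3, PAGE4, FAM111B, FAM181B and IGFL2. Their means in the DOT1L KO ran from 3.71 CPM in PAGE4 to 8.79 CPM in CCNJL, whose libraries at 8.82, 8.89 and 8.68 CPM were the closest to each other of all members.

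The next question was whether loss of ENL turned the same genes on. With the same limits, 2 of the 70 members were on in the ENL KO (2.86%), 12 lay between the limits and 56 were off. Of the other 14678 silent genes 0.0409% were on in the ENL KO, and among the 2686 of them that are protein-coding and had a count in the controls 0.223% were. FAM9B, a testis-expressed gene of the X chromosome, had 0.415 and 0.467 CPM in the controls, 4.15, 4.07 and 3.92 CPM in the DOT1L KO and 4.11, 3.34 and 4.61 CPM in the ENL KO, so the libraries of the knockouts overlapped and both lay above the controls. TUBA3C had 4.30, 4.43 and 3.25 CPM in the ENL KO, under each DOT1L KO library. Below the limit of 3 CPM, but above both controls in each ENL KO library, were LIPA at 2.27, 2.14 and 2.21 CPM and HAND2 at 1.23, 1.29 and 1.82 CPM. KRBOX1, a gene with a KRAB box, was at 1.37, 1.33 and 1.49 CPM. The other 9 genes between the limits were SUCNR1, ADGRG1, ABLIM1, FAIM2, PAGE4, ACP5, DOCK10, RPS6KA2 and PRSS23. The labels name a lane for the controls and the DOT1L KO but none for the ENL KO, so batch and loss of ENL cannot be told apart.

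Both knockouts were compared with the same controls, which the rule required to be low, and every member passed the filter on low counts through the DOT1L KO libraries. The edgeR calls for the ENL KO are therefore a description. With Benjamini-Hochberg adjustment over 14301 genes, 8 of the 70 were higher in the ENL KO than in the controls, against 18.8% of all genes tested, and 13 were lower, against 22.2%. The median log2 fold change was -0.59 over the 70 and 0.00 over all genes. The 8 are FAM9B, TUBA3C, HAND2, LIPA, KRBOX1, ABLIM1, SUCNR1 and ADGRG1. FAM9B had the smallest ratio of all members in the DOT1L KO, and its log2 fold change in the ENL KO was 3.17 ± 0.26 (SE, adjusted p = 4.64e-07). TUBA3C had 4.25 ± 0.32 (adjusted p = 1.95e-07), LIPA 2.86 ± 0.31 (adjusted p = 7.62e-06) and ADGRG1 1.46 ± 0.30 (adjusted p = 0.00143) in the same edgeR test. The 13 lower calls compare values near the limit of counting on both sides. Of those called lower, ANKRD44, GJA1, BCHE and SIGLEC17P had no count in any ENL KO library, and their higher control was between 0.234 and 0.369 CPM. ETNPPL and NLGN1 had no count there either and were not called. Without control 2, only 4 members were called lower, and without ENL KO library 3 only 8 were.

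HEL offered a different view, since no HEL library entered the choice. In the HEL controls 30 of the 70 genes were on (42.9%), 11 lay between and 29 were off. The corresponding share on was 4.38% of the other silent genes, 8.12% of the protein-coding ones and 14.1% of the protein-coding ones with a count in the K562 controls. FREM1, an extracellular matrix protein gene (chr9:14734666-14910995), had 923 and 957 CPM in the HEL controls, against 0.0461 and 0.187 CPM in the K562 controls and 5.72, 5.44 and 5.59 CPM in the DOT1L KO. SLC37A1, a sugar-phosphate transporter, had 186 and 180 CPM in the HEL controls and 5.08, 6.16 and 6.91 CPM in the DOT1L KO. RASGRP3, an activator of RAS, had 79.03 and 76.2 CPM in HEL and 8.17, 9.61 and 7.74 CPM in the DOT1L KO, and MX2, an interferon-induced restriction factor, had 53.8 and 53.0 CPM and 3.88, 4.31 and 5.69 CPM. In these 4 genes the DOT1L KO stood between its own controls and HEL. That order follows from the rule and from naming the members highest in HEL, so it does not describe the other members. Also on in the HEL controls were SUCNR1, CD74, SERPINE2, SYNE1, RBMS1, LIPA, RIN3, AASS, ADGRG1, FZD3, TEK, TAGAP, GJA1, MGLL, NR2F1, HERC6, FAM111B, SPRY1, KLF12, ABCB4, GIMAP6, XAF1, CCNJL, SGCZ and PRSS23.

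At the other end, 17 members had 0 counts in both HEL controls, among them UNC5C, TUBA3C, FAM9B, HAND2, TFAP2B, CPE, HTR4 and BCHE. A count of 0 in the HEL controls allows up to 0.237 CPM in the shallower library. Both genes that were on in the ENL KO belong here. Of the 30 genes on in HEL, 26 were off in the ENL KO and 4 lay between, and 22 genes were off in both.

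**Figure D2:**
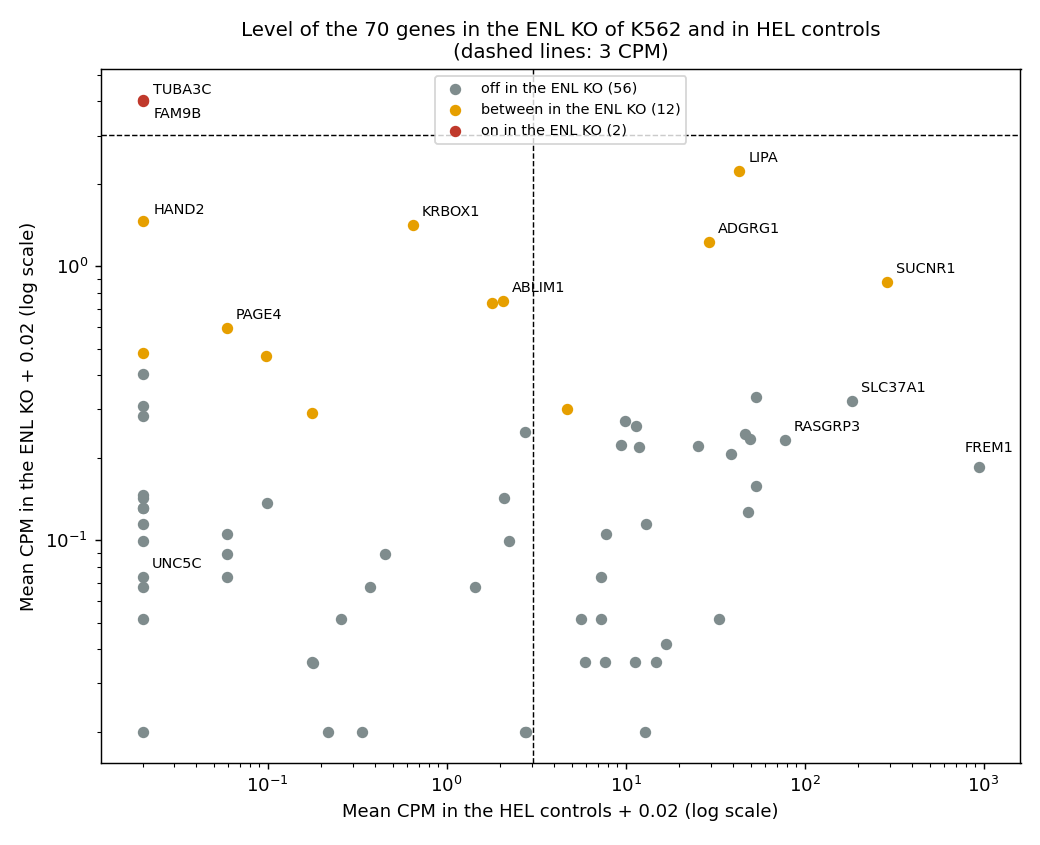
Each point is 1 of the 70 genes, placed by its mean CPM in the HEL controls (x axis) and in the ENL KO of K562 (y axis), both plus 0.02 and on log scales, with dashed lines at 3 CPM. TUBA3C and FAM9B share the upper left corner, on in the ENL KO and at 0 in HEL, whereas FREM1 and SLC37A1 lie at the right, highly transcribed in HEL and off in the ENL KO.

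The opposite view asks how many genes of HEL came on in K562 without DOT1L. On the autosomes 59 genes were silent in the K562 controls and at 100 CPM or more in both HEL controls. Of these 6 were on in the DOT1L KO: the members FREM1, SUCNR1 and SLC37A1, and SLFN11, GBP4 and SLFN13, which the symbol rule left out. For comparison, 80 of all 14758 silent genes, on any chromosome, were on there. Another 38 of the 59 stayed off. The level in the DOT1L KO was a median 0.0708% of that in HEL, and at most 11.6%. FLI1, an ETS factor of megakaryocytes and endothelium, had 568 CPM in HEL and no count in the DOT1L KO, and PLEK, the platelet protein pleckstrin, had 1924 CPM and 0.274 CPM.

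Knockdown of DOT1L in HEL is the 1 comparison of DOT1L depletion that the choice of genes did not use. Of the 70 genes 39 passed the filter on low counts there, and 31 had too few reads to test. With edgeR's quasi-likelihood test and adjustment over 12635 genes, 12 members rose and 14 fell, that is 30.8% and 35.9% of those tested. The shares over all genes tested were 27% and 28%, so the members rose and fell at close to the background rate, and their median log2 fold change was 0.09 against 0.01 over all. The count of members that rose depends on the fit: it was 6 with DESeq2 and 7 without HEL control 1. The size of the changes stood further from the background: 4 members rose and 7 fell by at least 1 on the log2 scale, while 3.37% and 2.47% of all genes tested did. Among the genes on in the HEL controls, 8 of the 30 members (26.7%) passed both limits, and 3.17% of all 10640 such genes did. Neither background was matched for level. The members with changes of this size had mean HEL control levels from 0.315 CPM in ETNPPL to 77.6 CPM in RASGRP3.

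None of the 29 members that were off in the HEL controls came on with the knockdown. Of these, 28 stayed off, with too few reads to test, and ETNPPL moved to between the limits. How many of all genes off in the HEL controls came on was not counted. Of the members between the limits, 2 (ANKRD44 and ABLIM1) came on and 1 (KRBOX1) went off. Of those on, 2 (SGCZ and PRSS23) fell to between. ETNPPL, an enzyme that breaks down phosphoethanolamine, had 0.396 and 0.234 CPM in the HEL controls and 1.29 and 1.65 CPM in the KD (log2 fold change 2.15 ± 0.49 SE, edgeR adjusted p = 0.000214). ABLIM1, an actin-binding protein, and FAIM2, an inhibitor of FAS-driven cell death, were the other members that were not on in the controls and rose. ABLIM1 went from 1.74 and 2.34 CPM to 6.84 and 6.75 CPM, an increase of 1.69 ± 0.22 on the log2 scale (adjusted p = 5.02e-09). Its KD libraries lay above both HEL controls, which was a condition for naming it here. In K562 its DOT1L KO libraries lay above both controls, as the rule requires (4.34, 5.20 and 5.44 CPM against 0.0461 and 0.234 CPM).

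Of the members already on in HEL, GIMAP6 and ADGRG1 rose most. GIMAP6, a GTPase of the lymphocyte GIMAP family, had 7.04 and 8.35 CPM in the HEL controls and 22.0 and 22.2 CPM in the KD (log2 fold change 1.49 ± 0.12 SE, edgeR adjusted p = 2.34e-15). ADGRG1 had 28.9 and 29.3 CPM in the controls and 81.5 and 79.6 CPM in the KD (1.43 ± 0.06, adjusted p = 4.36e-26). SLC37A1, with a log2 fold change of 0.42 ± 0.04, and MX2, with 0.15 ± 0.06, rose by less, and CD74, at 48.8 and 50.6 CPM in the controls and 54.1 and 54.3 CPM in the KD, did not pass the threshold.

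Other members fell when DOT1L was knocked down in HEL. GJA1, the gap junction protein connexin 43, had 13.1 and 12.5 CPM in the HEL controls and 3.86 and 4.20 CPM in the KD (log2 fold change -1.70 ± 0.16 SE, edgeR adjusted p = 3.23e-13). LYVE1 had 3.32 and 2.11 CPM against 0.644 and 1.40 CPM (-1.44 ± 0.34, adjusted p = 0.000344). RASGRP3 went from 79.03 and 76.2 CPM to 31.8 and 29.0 CPM, MGLL from 12.7 and 13.2 CPM to 5.95 and 6.501 CPM, and SERPINE2 from 54.8 and 51.7 CPM to 26.0 and 25.5 CPM. The edgeR adjusted p was 3.31e-25 for RASGRP3, 5.38e-09 for MGLL and 1.49e-18 for SERPINE2. In each of these 5 genes the KD libraries lay below both HEL controls, which was a condition for naming all of them here except SERPINE2. In K562 their DOT1L KO libraries lay above both controls, as the rule requires. SUCNR1 fell from 291 and 290 CPM to 162 and 158 CPM, while FREM1 fell by 0.28 on the log2 scale. Knockout and knockdown, the cell line and the way of counting change together between these comparisons and cannot be told apart.

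**Figure D3:**
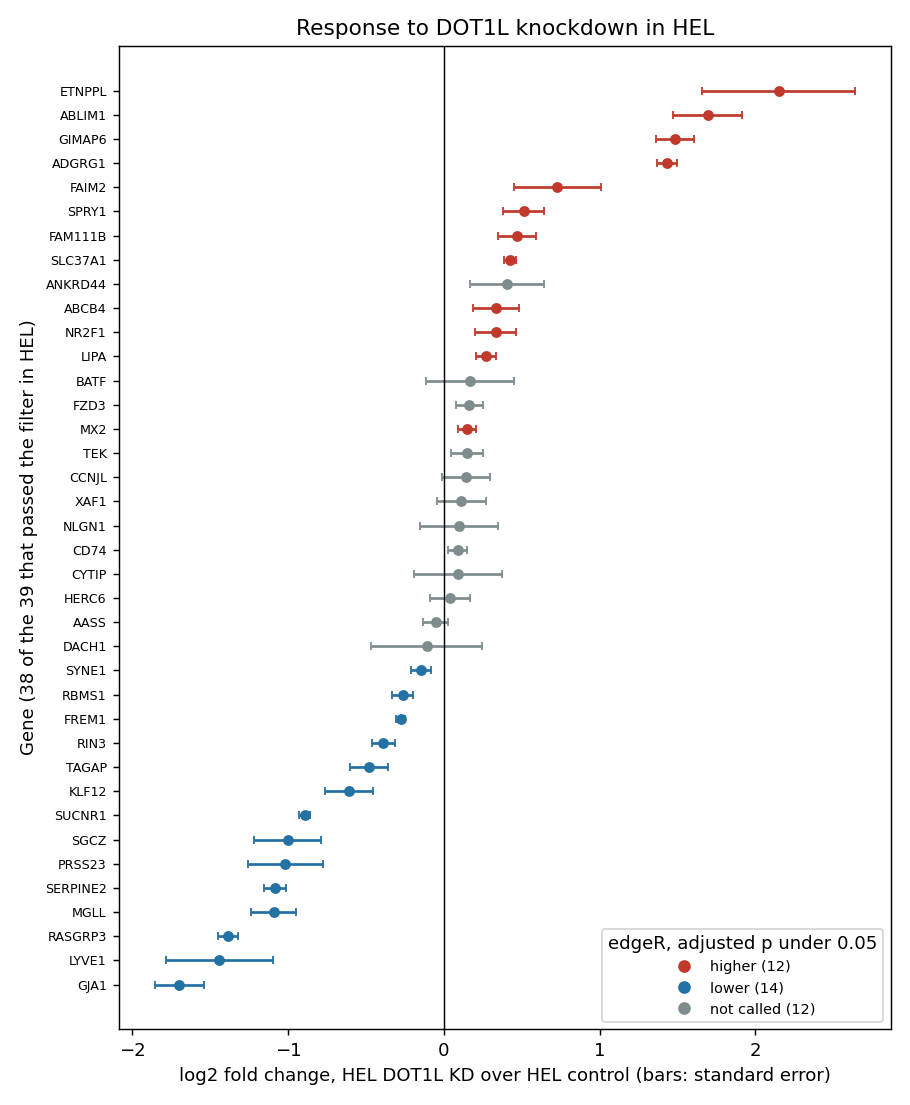
Log2 fold change of HEL DOT1L KD over HEL control for 38 of the 39 members that passed the filter, with standard errors as bars, in red where called higher, in blue where called lower and in grey where not called (edgeR). The 12 higher genes, led by ETNPPL, and the 14 lower genes, led by GJA1, lie on both sides of 0.

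By position the 70 genes were scattered. FLVCR2 and BATF on chromosome 14 were the only members within 250 kb of another. Families left out by symbol, such as SLFN with SLFN11 and SLFN13, could not enter this count of pairs. Chromosome 4 held 9 members (12.9%), including UNC5C, HAND2, HERC6 and CPE, and 4.34% of the other silent genes. Chromosome 1 held none, although 9.94% of the other silent genes lie there. The 10 genes left out by symbol, GBP4 among them, are not in these chromosome counts.

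The members spanned more of the genome than other genes. Their median span from first to last exon was 70137 bases, against 9812 bases for the other silent genes and 17429 bases for all genes, and 38.6% spanned more than 100 kb, against 12.7% and 14.1%. SGCZ, a membrane protein of the sarcoglycan complex, spanned 1153449 bases, the adhesion protein gene NLGN1 898420 bases, AFF3 595322 bases, SYNE1 515716 bases, KCND2 477161 bases and the kinase gene RPS6KA2 453188 bases. In these 6 genes the lowest DOT1L KO library was between 3.28 and 7.79 CPM. The median exonic length was 4039 bases in the members and 1529 bases in the other silent genes. Of the 70 members 69 are protein-coding, against 7200 of the 14678 other silent genes. Neither span nor exonic length was compared among protein-coding genes alone. The limits of the rule were not scaled by length, so per kilobase they are lower for a longer transcript.

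The genes next to the members were often higher in the DOT1L KO too. The nearest genes on either side of the 70 are 139 non-member genes, of which 80 were themselves silent in the controls. Of the 78 that could be tested, 45 were higher in the DOT1L KO (57.7%, edgeR) and 8 were lower, against 26.9% and 24.2% of all genes tested. The members themselves were all called higher, as the rule implies. Between 1 and 10 CPM in the controls, where every gene passed the filter on low counts, 16 of 18 neighbours were higher (88.9%, against 31.7% of other genes at that level). At 10 CPM or more 6 of 33 were (18.2%, against 19.7%). Under 1 CPM 23 of the 27 tested neighbours were higher (85.2%, against 47.6%), but a gene that low in the controls passes the filter mostly by being high in a knockout. Counted over all 88 neighbours at that level, tested or not, the 23 make up 26.1%, against 6.15% of the other genes. Without the filter 33 of 73 were higher (45.2%, against 14.9%). Because the neighbours were reached through genes chosen in the same comparison, these shares are given without a test.

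**Figure D4:**
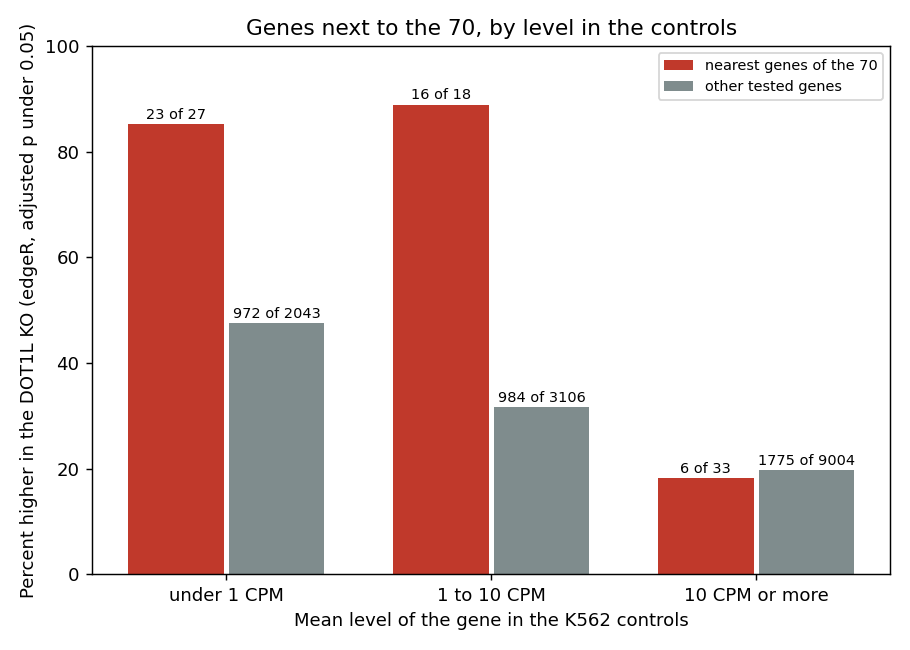
Percent of genes called higher in the DOT1L KO (edgeR, adjusted p under 0.05) among the nearest genes of the 70 members (red) and among the other genes tested (grey), split by mean level in the K562 controls. Genes under 1 CPM are in the plot only where they passed the filter, 27 of 88 neighbours. The red bars stand at 85.2% and 88.9% in the low levels, above the grey bars, and at 18.2% beside a grey bar of 19.7% at 10 CPM or more.

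Several neighbours are relatives of the member beside them, and 5 such pairs are named here after their values had been seen. CD209, a lectin 15571 bases from CLEC4M, had no count in the controls and 1.75, 1.44 and 1.62 CPM in the DOT1L KO. MX1, 11166 bases from MX2, likewise had no count in the controls and 0.877, 0.718 and 0.931 CPM in the DOT1L KO. The drug efflux pump gene ABCB1, next to ABCB4, had 5.77 and 5.79 CPM in the controls and 37.5, 44.1 and 42.0 CPM in the DOT1L KO, and fewer reads in the ENL KO (1.37, 1.00 and 2.66 CPM). GIMAP2, next to GIMAP6, went from 0.969 and 0.887 CPM to 7.29, 8.62 and 7.40 CPM, and ADGRG5, next to ADGRG1, from 0.369 and 0.887 CPM to 4.06, 4.04 and 4.80 CPM. In all 5 the DOT1L KO libraries lay above both controls. Related neighbours were not all higher. PAGE1, next to PAGE4, was called higher, but HERC5, next to HERC6, was not called (edgeR adjusted p = 0.0605). FAM9A, next to FAM9B, had no count in any library, and GIMAP4, ADGRG3 and IGFL3 had too few reads to test. Of the 70 members, 7 share exon bases with a gene on the other strand, and only for PRSS23, which overlaps FZD4 (a mean of 46.8 CPM in the controls and 43.2 CPM in the DOT1L KO), was the partner above 3 CPM.

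Promoters were read from RefSeq for 56 of the 70 genes, as 250 bases before and 50 bases after the start, and set beside 27303 promoters in all. The ratio of observed to expected CpG ran from 0 in SUCNR1 to 1.01 in LIPA, with a median of 0.531. It was at least 0.6 in 25 members (44.6%), in 32.3% of the other silent genes with an entry and in 49.0% of all promoters, so CpG-poor starts such as that of SUCNR1 and CpG-rich ones such as that of ANKRD44, both printed above, are found among the members. Median GC content was 54.3% in the members and 58.3% in all promoters. Motifs were counted on either strand in the members, in the other silent genes and in all promoters. CCAAT was found in 41.1%, 35.5% and 35.7%. TATAAA was found in 16.1%, 15.8% and 11.95%. The erythroid motif AGATAA was found in 7.14%, 12.9% and 10.5%. The AP-1 motif TGANTCA was found in 8.93%, 9.57% and 7.76%. CAGCTG was in 14.3%, 19.0% and 17.7%, and TGTGGT in 12.5%, 15.2% and 13.1%. GGAAGT was in 26.8%, 19.7% and 23.2%, and GGGCGG, which can overlap other GC-rich motifs, in 39.3%, 33.1% and 44.6%. The RefSeq start lay within 100 bases of the count table's start in 38 of the 56 genes.

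Genes linked to silencing were examined as a list, since the members are genes with few or no counts in wild type K562. Of 30 Polycomb, DNA methylation and heterochromatin genes, all tested, 5 were higher and 7 lower in the DOT1L KO (median log2 fold change 0.01), and 8 were higher and 6 lower in the ENL KO (median 0.07). In the DOT1L KO the higher genes were EZH1, CBX8, SUV39H1, TET2 and TET3. The lower ones were JARID2, MTF2, PHF19, CBX7, DNMT1, DNMT3B and TET1. The list holds TET genes beside DNA methyltransferases, so its counts and medians do not describe a single function. In HEL, where 27 were tested, 8 rose and 10 fell. Over all genes tested, 26.9% were higher and 24.2% lower in the DOT1L KO. For the ENL KO these shares were 18.8% and 22.2%, and 27% rose and 28% fell in HEL. None of the 30 is a member.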

How the data were processed

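Strand-specific libraries of polyadenylated RNA were made with the dUTP method, per the labels' protocols. The authors deposited whole-number fragment counts per gene for K562 and read counts per gene for HEL, per the file headers, and no scaling or pooling is recorded. The submitters' processing notes name fastp 0.13.1, HISAT2 2.1.0, Bowtie2 2.3.4.1 and featureCounts 1.6.1 and the builds hg38 and hg19, without roles. The use of strand in counting is not given in the sources used here. Of 25097 symbols matched to RefSeq GRCh38.p14, 99.984% overlapped their position there, so coordinates are GRCh38 as deposited. K562 controls 2 and 3 were identical in all genes and entered as 1 library, whereas the chi-square of other replicate pairs, divided by its degrees of freedom, was 1.25 to 7.82. The 13 RNA-seq columns of the 74 samples thus gave 12 libraries, and the other samples were not analysed here. The labels name a lane for the K562 controls and DOT1L KO and none for the ENL KO, so a batch and loss of ENL cannot be told apart.

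CPM is the count over the column total, times 1000000. Groups were compared with edgeR 4.0.16 in R 4.3.3 (filterByExpr with minimum count 10 and total 15, TMM, quasi-likelihood test), with 8 K562 libraries in 1 fit and 4 HEL libraries in a separate one. Benjamini-Hochberg adjustment ran over all genes tested, with 0.05 as the threshold. The fit was tested on simulated data. Ratio intervals are exact 95% intervals for counting error. The members, lists, roles and tests were chosen with earlier results of these data known. Named in detail were the 10 members highest in the DOT1L KO, the 6 highest in the ENL KO, the 6 highest in the HEL controls, up to 8 largest changes in HEL and the 6 longest members, and others by role. The changes in HEL were taken only from called members whose KD and control libraries do not overlap. Alternatives were other scalings, no filter, DESeq2 1.42.0, a minimum fold change, a replicate block, leaving out each library and other limits. The split of neighbours by level and their count without the filter, the protein-coding backgrounds and the genes high in HEL were added after seeing the data. Results of 3 members are not reported here by name.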

Additional observations from a re-analysis of the deposited data

Results flagged for a closer look

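In HEL 14 of the 39 members tested were called lower in the KD (35.9%), and 28% of all genes tested were called lower there. Each of the 14 had both KD libraries below both controls, but the share of all genes with such a gap is not given. The decrease is opposite to the K562 DOT1L KO, where the rule fixed an increase. Their log2 fold changes in HEL were -1.70 for GJA1, -1.44 for LYVE1, -1.39 for RASGRP3, -1.09 for MGLL, -1.08 for SERPINE2, -1.02 for PRSS23 and -1.00 for SGCZ. They were -0.89 for SUCNR1, -0.61 for KLF12, -0.48 for TAGAP, -0.39 for RIN3, -0.28 for FREM1, -0.27 for RBMS1 and -0.15 for SYNE1. The difference between the cell lines was not tested, because the K562 side was set by the choice of genes.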

How the results depend on the processing

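Of the counts and values that answer a comparison, 104 stayed within 1.5 times of the reported value and 15 did not, and all 188 values of single named genes kept their direction and side of the threshold. A minimum absolute log2 fold change of 1 left 2265 genes in the DOT1L KO, 1573 in the ENL KO and 738 in HEL, with 4 members higher and 7 lower in HEL. DESeq2 called 4373 genes and 6 higher members in HEL, against 6951 and 12. Leaving out 1 library gave 4 to 15 members lower in the ENL KO (4 without control 2, 8 without ENL KO 3) and 7 to 11 members higher in HEL (7 without control 1). More members were higher than lower in the ENL KO without control 2 (8 and 4) and without ENL KO 3 (9 and 8), and in HEL with upper-quartile scaling (14 and 13), against 8 and 13, and 12 and 14. The number of members was 127 with on at 2 CPM, 34 at 5 CPM, 31 with off under 0.25 CPM and 139 under 1 CPM, and 0 members were on in the ENL KO at 5 CPM.

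Deviations of same-numbered K562 libraries correlated at r = 0.29 to 0.63 in 5 pairs, but at 0.090 for control 2 and ENL KO 2 and 0.087 for DOT1L KO 2 and ENL KO 2. DOT1L KO 2 correlated best with ENL KO 3 (0.34), and the HEL pairs gave -0.030. The numbers were therefore not taken to pair the libraries. With a replicate block 8340 genes were called in the DOT1L KO, 7021 in the ENL KO (10 members higher, 15 lower) and 6903 in HEL (11 higher, 13 lower). Depth limits the low side: 3 counts are 0.103 to 0.247 CPM, so changes below that level were not detectable.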
